A study of Mus musculus with 50 samples.

Results

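The genes described here are the heat shock, Dnaj and chaperonin genes of the mouse brain, which encode molecular chaperones and their partners. They were chosen by name in the platform's probe-to-gene table. A gene belongs when its single symbol begins with Hsp followed by a digit or by a, b, d, e or h, with Dnaj, or with Cct followed by a digit, or when it is Tcp1. Hspa5 and Hsp90b1, the Hsp70 and Hsp90 of the endoplasmic reticulum, and Hspg2, a proteoglycan, are left out. The rule found 54 of the 8251 genes with 1 symbol, on 77 of the 12488 probe sets, and each gene stands by its probe set of highest mean over the 50 arrays. The rule itself uses gene names and no measured value.

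Chaperones bind unfolded protein chains and help them fold, refold or be degraded. Hsp70 proteins do so in cycles of ATP hydrolysis that J-domain proteins (the Dnaj family) start and that exchange factors such as the Hsp110 proteins end by releasing ADP. Hsp90 acts later on signalling proteins, small heat shock proteins hold aggregating proteins, and ring-shaped chaperonins enclose their clients: Hspd1 with its lid Hspe1 in mitochondria, and the CCT ring, which folds actin and tubulin, in the cytosol. Part of the family is switched on by heat shock factors, which bind inverted repeats of a short element, and part is made at all times, in neurons at high levels.

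The study took neocortex and hippocampus from 8-week-old mice lacking 1 of 2 receptors for the lipid sphingosine 1-phosphate. Per the labels, mice deficient in S1P2 (gene S1pr2) have sporadic seizures between 4 and 7 weeks of age, and mice deficient in S1P3 (gene S1pr3) do not. The 6 groups are wild-type, S1P2-KO and S1P3-KO in either tissue, with 10, 10 and 5 arrays per tissue. Both sexes are represented, with 5 males and 5 females in each wild-type or S1P2-KO group and 2 males and 3 females in each S1P3-KO group. These groups follow the sample titles. The series' design text names S1P2-deficient mice in place of the S1P3-deficient ones and gives group sizes in another order (10, 5 and 10). The labels used here give no strain, no allele and no cell type for the deletions, and the titles call the replicates biological. Each value is a MAS5 signal, an intensity on a linear scale, and a difference is a log2 difference of signals ± SE from limma, with hippocampus minus neocortex or knockout minus wild-type, so that positive means higher in the first named.

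Promoter sequence is shown for Hspe1 and Cct5, which differed between the tissues and hold the repeats marked below. Hspa2 and Dnajb1, which also differed, are not shown, and no such repeat was found for them. Not every member had promoter sequence to search, and whether these genes did is not given here. Their promoters therefore cannot be said to lack the repeat. Hspd1 is shown because it shares its stretch with Hspe1, and Hspa1a and Hspa1b because they are near copies of each other. Sequences are from RefSeq on GRCm38.p6, 5′ to 3′, in lower case, with inverted repeats of the unit GAA (GAANNTTC or TTCNNGAA, either strand by construction) in capitals. Hspe1 and Hspd1 are transcribed away from each other, with 215 bases between the Hspe1 start and the nearer Hspd1 start, and the 30 bases shown (plus strand, chr1:55088053-55088082) lie between them. Cct5 is shown over 100 bases before its start (minus strand, chr15:31601847-31601946), and Hspa1a (chr17:34972157-34972306) and Hspa1b (chr17:34959239-34959388), both on the minus strand, over 150 bases before theirs.
Hspe1 and Hspd1: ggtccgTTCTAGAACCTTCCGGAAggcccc
Cct5: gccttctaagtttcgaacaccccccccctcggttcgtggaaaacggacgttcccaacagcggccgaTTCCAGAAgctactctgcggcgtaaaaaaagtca
Hspa1a: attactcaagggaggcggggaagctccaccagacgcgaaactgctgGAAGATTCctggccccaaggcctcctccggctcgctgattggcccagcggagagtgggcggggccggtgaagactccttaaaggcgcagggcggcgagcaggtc
Hspa1b: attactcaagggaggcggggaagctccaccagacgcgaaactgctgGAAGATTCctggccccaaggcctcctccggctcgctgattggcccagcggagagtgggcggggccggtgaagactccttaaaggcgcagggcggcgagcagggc
The Hspa1a and Hspa1b stretches are identical at 149 of 150 bases (99.3%). The probe sets named for these near-identical copies cannot be taken to separate them fully.

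The table of promoters, from 250 bases before to 50 bases after each gene's start, held 46 of the 54 members. An inverted repeat of 2 units (GAANNTTC or TTCNNGAA) stood in at least 1 window of 14 of the 46 members (30.4%), and in 17.0% of all 27025 genes of the table. An array of 3 units (GAANNTTCNNGAA or TTCNNGAANNTTC, which contains the shorter motif) stood in 4 members (8.7%), Hspd1, Hspe1, Dnajb6 and Hsph1, and in 0.662% of all genes. Hspd1 and Hspe1 share 1 stretch, so the 4 genes are 3 promoters. These matches describe the letters of a fixed window and show no binding.

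Of the 54 members, 52 passed the filter on low signals and were tested. Hspb1 (Hsp27) and Dnajb8 did not: the group means of Hspb1 lay between 59.8 and 94.5 and those of Dnajb8 between 71.4 and 129, below the filter's signal of 132.6. Hspb1 is a classical heat-inducible gene, and here it was in the low range of the arrays in all 6 groups. The tissue labels were borne out by their markers, since Dsp ran from 725.7 to 1762.9 in hippocampus and from 22 to 405.8 in neocortex, and Mef2c from 4632.5 to 8471.4 in neocortex and from 13.4 to 2016.9 in hippocampus. The receptor genes were less clear. S1pr2 read 628 in S1P2-KO and 672 in wild-type neocortex (-0.10 ± 0.14, limma adjusted p = 0.8739) and 542 and 649 in hippocampus (-0.24 (adjusted p = 0.9248)). S1pr3 read 495 in S1P3-KO and 827 in wild-type hippocampus (-0.69 ± 0.18, adjusted p = 0.1644), and 729 and 859 in neocortex (-0.26 (adjusted p = 0.6376)). Where these probe sets lie relative to the deleted parts is not given in the sources used here, so they do not check the genotypes, which are those of the labels throughout.

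The 3′ to 5′ ratio of control transcripts (log2, averaged over the controls), which rises when RNA is degraded or copied short, was 0.01 to 0.61 in neocortex and 0.02 to 0.52 on 21 hippocampus arrays. It stood at 4.46 on S1P3-KO hippocampus replicate 5, 1.37 on S1P2-KO replicate 7, 1.20 on wild-type replicate 4 and 0.75 on wild-type replicate 3. Replicate 5 of S1P3-KO hippocampus held the lowest of the 25 hippocampus signals for 7 and the highest for 16 of the 52 members (13.5% and 30.8%, against 18.7% and 21.9% of all genes). Values of S1P3-KO hippocampus are given with all 5 arrays, and for the members called or of smallest p there also without replicate 5.

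The comparison of tissues asks which chaperone genes differ between hippocampus and neocortex, and whether they do so in every genotype. In wild-type mice Hspa2, Hspe1 and Cct5 were higher in hippocampus and Dnajb1 was lower. These 4 of 52 tested members passed an adjusted p of 0.05 (7.69%), where 15.6% of all 6350 genes tested did (8.46% higher and 7.18% lower). All 4 passed also in S1P2-KO and in S1P3-KO mice, in the same direction. The median difference over the 52 members was 0.01 and over all genes 0.01. In bulk tissue, fewer cells of a type and less RNA per cell cannot be told apart.

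**Figure D1:**
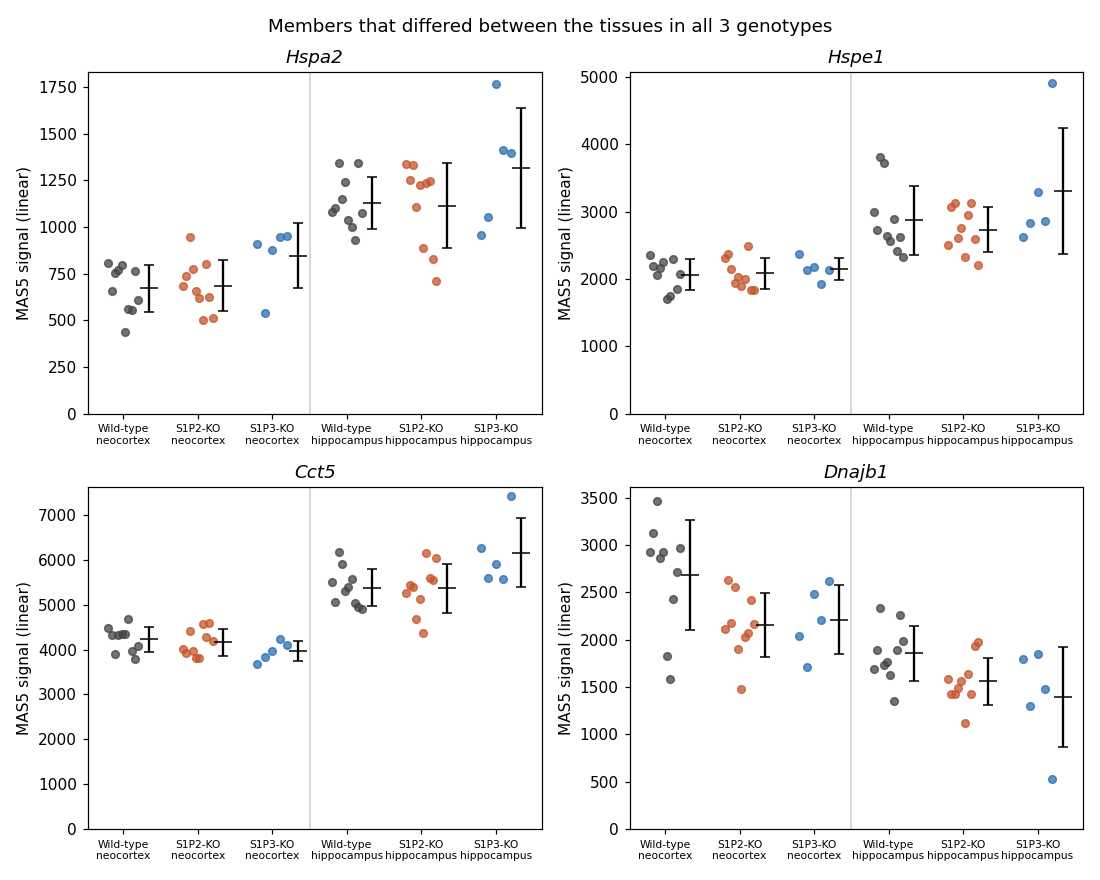
MAS5 signal (linear axis) of Hspa2, Hspe1, Cct5 and Dnajb1 on each array, by genotype and tissue, with points for arrays, a black bar for the group mean and whiskers for 1 SD. Hspa2, Hspe1 and Cct5 lie higher and Dnajb1 lower in the 3 hippocampus groups than in the neocortex group of the same genotype, and 1 S1P3-KO hippocampus array has Dnajb1 at 532.

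Of the 7 Hsp70 genes, 1 was higher in wild-type hippocampus and none was lower. Hspa2, an Hsp70 best known for its part in sperm development, ran from 439 to 809.6 with a median of 706 in wild-type neocortex and from 929 to 1342 with a median of 1091 in hippocampus. Every hippocampus array was above every neocortex array. The means were 672 ± 126 (SD, n = 10) and 1130.2 ± 139 (SD, n = 10), a difference of 0.74 ± 0.12 or 1.67-fold (limma adjusted p = 7.016e-06). In S1P2-KO it ran from 504 to 949 in neocortex and 709 to 1338 in hippocampus, which overlap, with a difference of 0.67 ± 0.12 (adjusted p = 4.076e-05). In S1P3-KO the 5 neocortex arrays read 912, 538, 879, 947 and 953 and the 5 hippocampus arrays 957, 1055, 1766, 1415 and 1399. These groups did not overlap, and the difference of 0.61 ± 0.17 had an adjusted p of 0.01366. The S1P3-KO call was lost without neocortex replicate 2 (0.41, adjusted p = 0.1252) or without hippocampus replicate 3 (adjusted p = 0.06221), and without hippocampus replicate 5 it was 0.57 (adjusted p = 0.04278).

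Hspa1b, the classical stress-inducible Hsp70, is a member singled out here after its values were seen. It ran from 359 to 1055 with a median of 669.8 in wild-type neocortex and from 523 to 1755 with a median of 776 in wild-type hippocampus, with 7 of 10 hippocampus arrays above the neocortex median. It was called in S1P2-KO mice (0.61 ± 0.18, adjusted p = 0.01521; 373 to 800.1 in neocortex and 648 to 1260 in hippocampus) and differed by 0.43 (adjusted p = 0.1067) in wild-type and 0.63 (adjusted p = 0.1111) in S1P3-KO. Whether the genotypes differ in this was tested by the interaction, which gave 0.18 ± 0.26 for S1P2-KO (adjusted p = 0.9997). Its near copy Hspa1a differed by 0.06, 0.18 and 0.48 in wild-type, S1P2-KO and S1P3-KO, not called in any (adjusted p = 0.877, 0.6041 and 0.2029). The constitutive Hsp70 of the cytosol, Hspa8, which also strips clathrin coats from vesicles, had means of 11269 ± 1853 (SD, n = 10) in wild-type neocortex and 11457 ± 1681 (SD, n = 10) in hippocampus, a difference of 0.03 ± 0.10 with a 95% interval of -0.18 to 0.24. Hspa9, the Hsp70 of mitochondria, differed by 0.00, with an interval of -0.19 to 0.20.

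The mitochondrial chaperonin has 2 members, Hspe1 and Hspd1. Hspe1, the lid subunit, ran from 1699 to 2353 with a median of 2117 in wild-type neocortex and from 2330.5 to 3816 with a median of 2689 in wild-type hippocampus, so that the groups overlapped only between 2330.5 and 2353. The means were 2067 ± 231 (SD, n = 10) and 2873 ± 512 (SD, n = 10), and the difference was 0.46 ± 0.09 or 1.37-fold (adjusted p = 0.0001239). In S1P2-KO the ranges were 1831 to 2486 and 2211 to 3135, with all 10 hippocampus arrays above the neocortex median (0.38 ± 0.09, adjusted p = 0.001469). In S1P3-KO the neocortex arrays read 2372, 2137, 2179, 1921 and 2136 and the hippocampus arrays 2623, 2832, 3291, 2866 and 4915, without overlap (0.57 ± 0.13, adjusted p = 0.001135). The highest of them is the array of 3′ to 5′ ratio 4.46, and without it the difference was 0.41 (adjusted p = 0.01329). Hspd1, the ring subunit encoded on the other side of the shared stretch, ran from 3896 to 7958 with a median of 5141 in wild-type neocortex and from 3885 to 10606 with a median of 6768 in hippocampus. Its differences were 0.26 (adjusted p = 0.4101), 0.19 (adjusted p = 0.6314) and 0.00 (adjusted p = 0.9957) in wild-type, S1P2-KO and S1P3-KO. The 2 genes' differences were not tested against each other, and the intervals of their wild-type differences, 0.28 to 0.64 and -0.12 to 0.65, overlap.

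Of the 9 genes of the cytosolic chaperonin and its testis paralog, 1 was called higher in wild-type hippocampus, and 7 of the 9 estimates were above 0. Cct5, the epsilon subunit of the ring, ran from 3796 to 4689 with a median of 4335 in wild-type neocortex and from 4901 to 6175 with a median of 5344 in hippocampus. The groups did not overlap. The means of 4229 ± 281 (SD, n = 10) and 5379 ± 419 (SD, n = 10) differed by 0.34 ± 0.06 or 1.27-fold (adjusted p = 1.276e-05). In S1P2-KO the ranges were 3809.6 to 4602 and 4374 to 6142 (0.36 ± 0.06, adjusted p = 5.228e-06). In S1P3-KO all neocortex arrays (3674, 3826, 3961, 4242 and 4102) lay below all hippocampus arrays (6267, 5596, 5909, 5572 and 7432), with a difference of 0.63 ± 0.08 (adjusted p = 1.275e-07). Without replicate 5, which gave the highest of these, the difference was 0.56 (adjusted p = 1.188e-06). The S1P3-KO difference exceeded that of wild-type by 0.29 ± 0.10, which did not pass (adjusted p = 0.8748). A second Cct5 probe set gave 0.49 in wild-type (adjusted p = 0.04606), 0.08 in S1P2-KO and 0.44 in S1P3-KO, and with the mean of both probe sets the S1P2-KO call was lost (0.22, adjusted p = 0.1669).

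The other ring subunits were not called in wild-type. Cct4, Cct6a, Cct8, Cct2, Cct7 and Tcp1, subunits of the same ring, differed by 0.19, 0.16, 0.15, 0.09, 0.07 and 0.06. Cct3 depended on the probe set. Its brightest probe set, which stands for the gene here, read 1814 ± 221 (SD, n = 10) in neocortex and 1789 ± 239 (SD, n = 10) in hippocampus (-0.02), and a second one read 1344 and 1728 and was called (0.35 ± 0.10, adjusted p = 0.008714). Cct6b, the paralog of Cct6a known from testis, was dim and ran from 159.8 to 444 with a median of 236 in wild-type neocortex and from 85.2 to 239 with a median of 150.5 in hippocampus. Its difference of -0.67 ± 0.25 had an adjusted p of 0.05865, and S1P2-KO and S1P3-KO gave 0.10 and 0.35.

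Among 10 tested DnajA and DnajB genes, which encode the general J-domain partners of Hsp70, Dnajb1 was called and was lower in hippocampus. Dnajb1 (Hsp40) is the heat-inducible partner of Hsp70. It ran from 1584 to 3464 with a median of 2892 in wild-type neocortex and from 1357 to 2338 with a median of 1827 in hippocampus, where none of the 10 arrays reached the neocortex median. The means were 2683 ± 581 (SD, n = 10) and 1854 ± 292 (SD, n = 10), and the difference was -0.51 ± 0.14, a ratio of 0.704 (adjusted p = 0.009402). In S1P2-KO the ranges were 1477 to 2632 and 1119 to 1974, again with no hippocampus array above the neocortex median (-0.46 ± 0.14, adjusted p = 0.02041). In S1P3-KO the neocortex arrays read 2035, 1713, 2485, 2204 and 2624 and the hippocampus arrays 1799.8, 1304, 1844, 1480 and 532 (-0.77 ± 0.20, adjusted p = 0.0072). The value of 532 belongs to replicate 5, the array of highest 3′ to 5′ ratio, and without that array the difference was -0.47 (adjusted p = 0.08148). Dnaja1, the Hsp40 that serves Hsp70 in the cytosol at all times, had means of 9393 ± 929 (SD, n = 10) and 9588 ± 1485 (SD, n = 10) in wild-type neocortex and hippocampus and a difference of 0.02, with an interval of -0.14 to 0.18. Dnajb2, a J protein of neurons that binds ubiquitin, differed by -0.32 (adjusted p = 0.08514), -0.27 (adjusted p = 0.1681) and -0.44 (adjusted p = 0.1098) in the 3 genotypes.

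The remaining DnajC genes hold 11 members of varied function, of which 0 were called in wild-type, 2 in S1P2-KO and 1 in S1P3-KO, all lower in hippocampus. Of all genes, 15.6%, 15.7% and 12.9% were called in these comparisons, so counts this small do not set the class or a genotype apart. Dnajc7, which binds Hsp70 and Hsp90, ran from 3143 to 4442 with a median of 3735 in wild-type neocortex and from 2308 to 4099 with a median of 3417 in hippocampus (-0.18 ± 0.09, adjusted p = 0.2095). It was called in S1P2-KO (-0.27 ± 0.09, adjusted p = 0.03729) and in S1P3-KO, where neocortex read 4567, 4053, 3896, 3801 and 3618 and hippocampus 2453, 3629.6, 3054, 2759.5 and 1838 (-0.56 ± 0.13, adjusted p = 0.002131). Without replicate 5, the lowest of them, the S1P3-KO difference was -0.42 (adjusted p = 0.02161). The S1P2-KO call was lost when any of 11 of the 20 arrays was left out, with an adjusted p of up to 0.08153. Dnajc21, a factor of ribosome assembly, was called in S1P2-KO, where it ran from 226 to 752 with a median of 556 in neocortex and from 155 to 406 with a median of 346 in hippocampus (-0.65 ± 0.15, adjusted p = 0.001329). In wild-type and S1P3-KO its differences were -0.40 (adjusted p = 0.0677) and -0.38 (adjusted p = 0.2723). Dnajc8, a protein of the splicing machinery, read 8342 ± 299 (SD, n = 10) and 8002 ± 652 (SD, n = 10) in wild-type neocortex and hippocampus and differed by -0.06, with an interval of -0.21 to 0.08.

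In the smaller classes, Hspb8, a small heat shock protein that works with Bag3 in autophagy, was called in S1P2-KO only, and the difference between genotypes was not called. It ran from 719.6 to 1227 with a median of 883 in S1P2-KO neocortex and from 900.4 to 1894 with a median of 1069 in hippocampus (0.35 ± 0.11, adjusted p = 0.02411), against 0.30 (adjusted p = 0.06913) in wild-type and 0.37 (adjusted p = 0.1235) in S1P3-KO, and its S1P2-KO interaction was 0.06 (adjusted p = 0.9997). The call was lost without any of 6 of the 20 arrays (adjusted p up to 0.07496) and with the mean of its probe sets (adjusted p = 0.05123). Hsp90aa1, the stress-responsive Hsp90 and the only Hsp90 of the rule, had means of 27914 ± 5506 (SD, n = 10) and 26018 ± 5578 (SD, n = 10) and a difference of -0.11 (-0.46 to 0.25). Hsph1, the Hsp110 exchange factor, differed by -0.14 ± 0.06 in wild-type and -0.16 ± 0.06 in S1P2-KO, with no hippocampus array of either above the neocortex median, and was not called (adjusted p = 0.1492 and 0.09148). Of the 5 Dnaj genes of the endoplasmic reticulum none was called in a tissue comparison. Dnajc10, a disulphide reductase there, differed by 0.06 in wild-type, with an interval of -0.20 to 0.32. Hspbp1, an exchange factor for Hsp70, differed by -0.04 (-0.27 to 0.19), and Hspb11, which is a subunit of the intraflagellar transport machinery, by 0.35 (adjusted p = 0.1816).

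Over the 3 genotypes, 8 of 52 members were called in S1P2-KO (15.4%, background 15.7% of genes) and 5 in S1P3-KO (9.62%, background 12.9%), and 4 in all 3. Of the members called in wild-type, which are only 4, 100% were called in all 3 genotypes, and of all genes called in wild-type 49.2% were. Without S1P3-KO hippocampus replicate 5 Dnajb1 was not called in S1P3-KO (limma adjusted p = 0.08148), and the share of all genes was not computed without that array. The sign of the tissue difference was the same in the 3 genotypes for 30 of 52 members (57.7%) and for 59.9% of all genes. In S1P3-KO, 35 of 52 members had estimates above 0 (67.3%, all genes 51.1%) with a median of 0.10, against 0.01 over all genes. Without S1P3-KO hippocampus replicate 5, 33 of 52 did (63.5%, all genes 52.4%), and 4 members were called (7.69%, all genes 8.79%). Without S1P3-KO neocortex replicate 1 the median was 0.18.

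**Figure D2:**
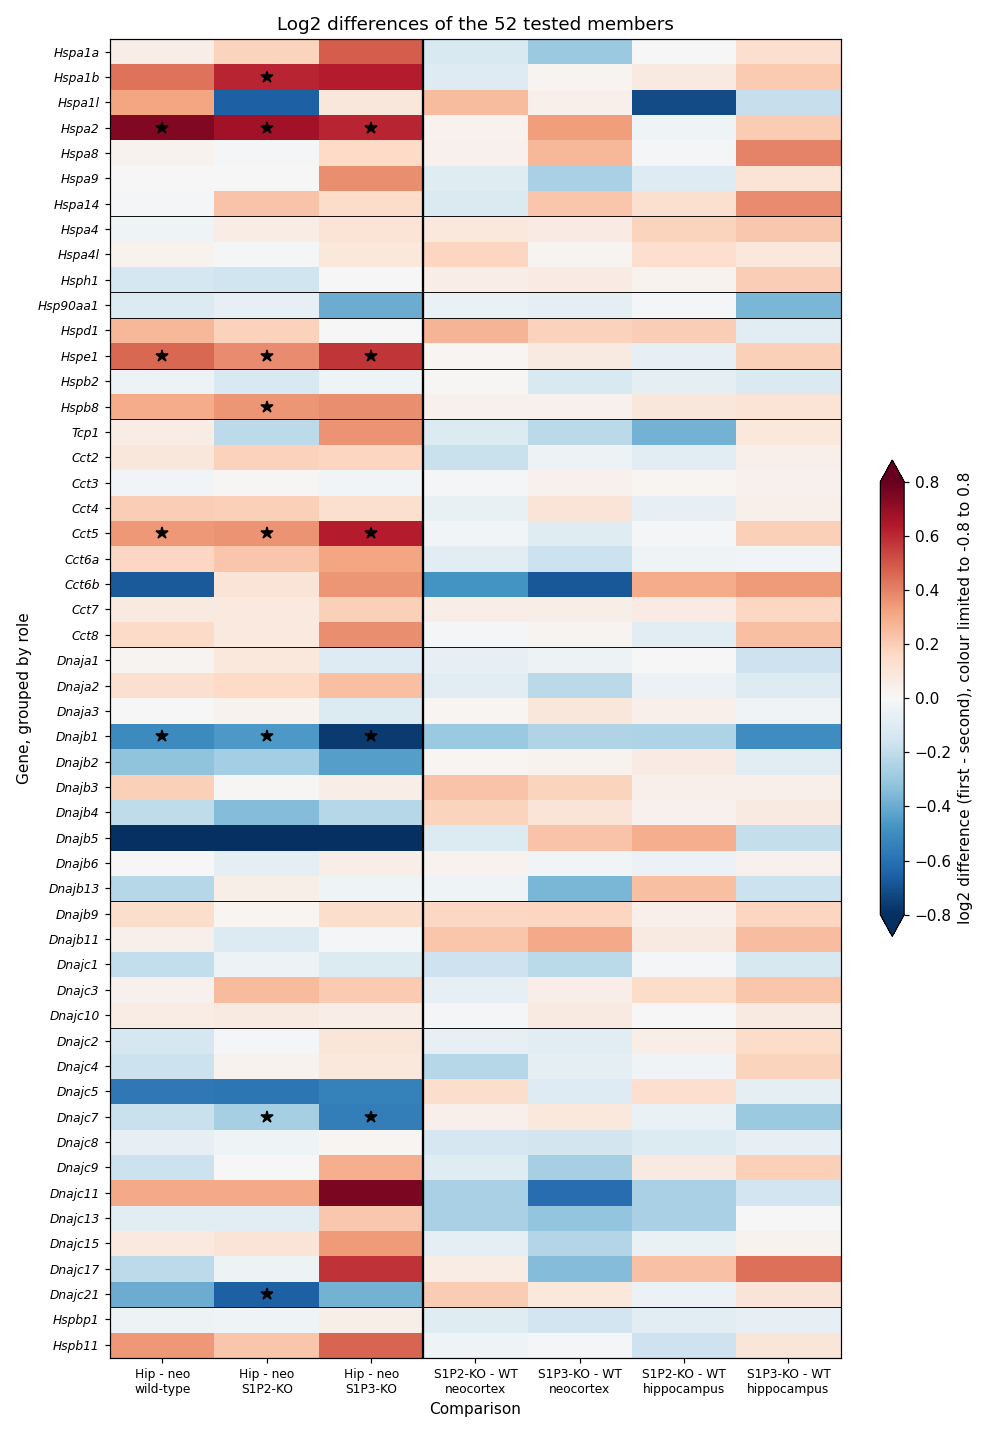
Log2 differences of the 52 tested members (rows, grouped by role) in 3 tissue comparisons and 4 knockout comparisons (columns), with colour limited to -0.8 to 0.8 and a star for a limma adjusted p under 0.05. Stars stand only in the tissue columns, and 4 rows, Hspa2, Hspe1, Cct5 and Dnajb1, have one in all 3.

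Some markers of cell types differed between the tissues. Snap25, a neuronal gene, ran from 41890.7 to 60810.3 in neocortex and from 32028.1 to 46244.4 in hippocampus, and Gfap of astrocytes from 657.8 to 2528.9 and from 2099.6 to 7107.9. Of the 5 neuron markers tested 1 was called lower in wild-type hippocampus, and 1 had an estimate above 0. Of 5 astrocyte markers 1 was called higher, and 2 had estimates below 0. Of 4 oligodendrocyte markers 1 was called higher, of 4 choroid plexus markers 1, and of 3 thalamus markers 1. Of 7 microglia and 6 endothelial markers 0 were called. In this comparison 15.6% of all genes were called. The summed signal of 4 choroid plexus markers ran from 278.7 to 2969.6 in wild-type neocortex and from 510.9 to 36933.5 in wild-type hippocampus. The part of these in the chaperone differences was not tested.

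Other genes of the folding network, from lists, were counted in the same comparison, in which 15.6% of all genes were called. Of 20 tested co-chaperones 3 were higher and 0 lower in wild-type hippocampus: Tomm34, which escorts mitochondrial precursors (0.27 (adjusted p = 0.01705)), Fkbp5, an Hsp90 partner induced by glucocorticoids (0.44 (adjusted p = 0.03511)), and Ppid, a cyclophilin bound to Hsp90 (0.22 (adjusted p = 0.04882)). Of 8 genes of prefoldin and tubulin folding, which hand clients to or from the CCT ring, the prefoldin subunit Pfdn2 was lower and the tubulin cofactor Tbca higher. Pfdn2 read 4426 in neocortex and 3434 in hippocampus, with no overlap (-0.37 ± 0.07, adjusted p = 0.0001331), and Tbca differed by 0.38 (adjusted p = 0.01319). Of 9 other heat-inducible genes only Cacybp, a ubiquitin ligase adaptor, was called (0.43 (adjusted p = 0.01765)), and of 9 endoplasmic reticulum chaperones 0 were, with the disulphide isomerase P4hb (0.66 (adjusted p = 0.05982)) and the retrieval receptor Kdelr1 (0.17 (adjusted p = 0.1448)) of smallest p. Of the heat shock factors and their binding protein, 3 are on the array and 1, Hsbp1, passed the filter (0.20 (adjusted p = 0.3256)).

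The comparison of S1P2-KO with wild-type asks which chaperone genes differ in the genotype reported to have seizures. None of the 52 members was called in either tissue, and neither was any gene (0% of genes in both). At an unadjusted p under 0.05, 4 members stood in neocortex (7.69%, all lower, where 8.99% of all genes did and 4.46% were lower) and 1 in hippocampus (1.92%, 5.76% of all genes). The median over the members was -0.03 in neocortex and -0.01 in hippocampus, and over all genes -0.01 in both. The wild-type arrays of a tissue are shared with the S1P3-KO comparison of that tissue.

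The 3 members of smallest p in S1P2-KO neocortex were Dnajc4, Dnajc13 and Dnajb1, all with lower estimates. Dnajc4 ran from 508 to 828 with a median of 630.5 in S1P2-KO and from 688 to 864 with a median of 780 in wild-type, with 2 of 10 S1P2-KO arrays above the wild-type median (-0.23 ± 0.08, adjusted p = 0.388). Dnajc13, a J protein of endosomes, ran from 498 to 729.6 with a median of 585 and from 549.8 to 917 with a median of 716 (-0.26 ± 0.10, adjusted p = 0.4018). In the heat-inducible Dnajb1 the S1P2-KO arrays ran from 1477 to 2632 with a median of 2141, none above the wild-type median of 2892 (-0.29 ± 0.12, adjusted p = 0.4289). The groups overlapped for all 3.

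In S1P2-KO hippocampus the 3 members of smallest p were Dnajc13, Hspa1l and Hspa4. Dnajc13 ran from 418 to 694 with a median of 575 in S1P2-KO and from 497 to 939 with a median of 648 in wild-type (-0.26 ± 0.12, adjusted p = 0.8898). Hspa1l, an Hsp70 known from testis, was dim, from 27.9 to 282 with a median of 56.6 and from 50.4 to 412 with a median of 209 (-0.72 ± 0.36, adjusted p = 0.8933). Hspa4, an Hsp110 exchange factor, ran from 5520 to 7498 with a median of 6195, and 10 of 10 S1P2-KO arrays exceeded the median of wild-type, 5457 (0.18 ± 0.10, adjusted p = 0.9028). With the mean of its probe sets the Hspa4 difference was 0.04.

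The heat-inducible members Hspa1a, Hspa1b, Dnajb1, Hsp90aa1 and Hsph1 and the constitutive Hspa8 were not called in S1P2-KO. In neocortex Hspa1a and Hspa1b differed by -0.12 (-0.49 to 0.25) and -0.11 (-0.43 to 0.22), and in hippocampus by 0.00 (-0.30 to 0.30) and 0.07 (-0.33 to 0.47), where the brackets hold 95% intervals. Dnajb1 differed by -0.29 (-0.53 to -0.06) in neocortex and -0.25 (-0.57 to 0.08) in hippocampus. Hspa8 differed by 0.03 (-0.18 to 0.24) and -0.01 (-0.21 to 0.19), and Hsp90aa1 by -0.05 (-0.31 to 0.21) and -0.01 (-0.43 to 0.40). Hsph1 gave 0.05 (-0.08 to 0.18) and 0.03 (-0.10 to 0.16).

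The comparison of S1P3-KO with wild-type concerns the knockout without seizures, with 5 arrays. No member was called in neocortex (0% of genes) or in hippocampus (0.0315% of genes). At an unadjusted p under 0.05, 5 members stood in neocortex (2 higher and 3 lower, 9.62%, where 10.6% of all genes did, 5.39% higher and 5.17% lower) and 6 in hippocampus (4 higher and 2 lower, 11.5%, where 9.54% of all genes did, 4.79% higher and 4.76% lower). In hippocampus 33 of 52 members had estimates above 0 (63.5%, all genes 48.8%), with a median of 0.07 against -0.01 over all genes. Among them were 8 of 9 CCT genes, 6 of 7 Hsp70 genes, 3 of 3 Hsp110 genes, 4 of 5 Dnaj genes of the endoplasmic reticulum, 6 of 11 other DnajC genes and 3 of 10 DnajA and DnajB genes, and Hsp90aa1 was at -0.37. Its S1P3-KO hippocampus arrays read 5936.9 (replicate 1), 29529.9, 20959.7, 30301.9 and 29589.6, where wild-type ran from 19211.4 to 36256.8. Only replicate 1 lay below the wild-type range. Without replicate 5, 33 of 52 were above 0 (all genes 51%), with 6 of 9 CCT genes and a median of 0.08. Leaving out wild-type hippocampus replicate 5 gave a median of 0.03, leaving out replicate 8 of that group 0.05, and leaving out S1P3-KO hippocampus replicate 1 gave 0.13. In neocortex 26 of 52 were above 0, with a median of 0.00 that became -0.07 without S1P3-KO replicate 1.

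Hspa8, the constitutive Hsp70, had the smallest p in S1P3-KO hippocampus. The 5 arrays read 12267, 15053, 14367, 14653 and 18199, all above the wild-type median of 11597, and the 10 wild-type arrays ran from 8738 to 14264. The groups overlapped, and the difference was 0.40 ± 0.12 (adjusted p = 0.2862). In neocortex the S1P3-KO arrays read 17531, 9721, 12368, 14346 and 13263 against 8686 to 14388 in wild-type (0.26 ± 0.13, adjusted p = 0.4655). Hsph1, which releases ADP from Hsp70, read 10826, 10474, 9638, 10957 and 11496 in S1P3-KO hippocampus and 7769.8 to 10285 in wild-type, again with 5 of 5 above the wild-type median of 9528 (0.20 ± 0.08, adjusted p = 0.4426). Dnajb1, their J-domain partner, read 1799.8, 1304, 1844, 1480 and 532 against a wild-type range of 1357 to 2338 (-0.50 ± 0.19, adjusted p = 0.4257). Without replicate 5, the array of highest 3′ to 5′ ratio, the differences were 0.31 (adjusted p = 0.5345) for Hspa8, 0.16 (adjusted p = 0.6741) for Hsph1 and -0.20 (adjusted p = 0.7536) for Dnajb1.

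In S1P3-KO neocortex the 3 members of smallest p were Dnajc13, Hspa9 and Hspa2. Dnajc13 read 610.5, 517, 667, 604 and 496, all below the wild-type median of 716 (-0.31 ± 0.12, adjusted p = 0.3542), and in hippocampus 581, 562, 596, 676 and 1043 (-0.01 (adjusted p = 0.9923), and -0.16 without replicate 5). Hspa9 read 2629.8, 3097, 3725, 3815 and 4273 in S1P3-KO and 3506 to 4921 in wild-type neocortex, with 1 of 5 above the wild-type median (-0.26 ± 0.11, adjusted p = 0.4066), and without replicate 1 the difference was -0.16 (adjusted p = 0.7368). Hspa2 was at 846 ± 174 (SD, n = 5) in S1P3-KO and 672 ± 126 (SD, n = 10) in wild-type (0.33 ± 0.15, adjusted p = 0.4343), and without replicate 2 the difference was 0.54 (adjusted p = 0.104). The groups of all 3 genes overlapped.

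**Figure D3:**
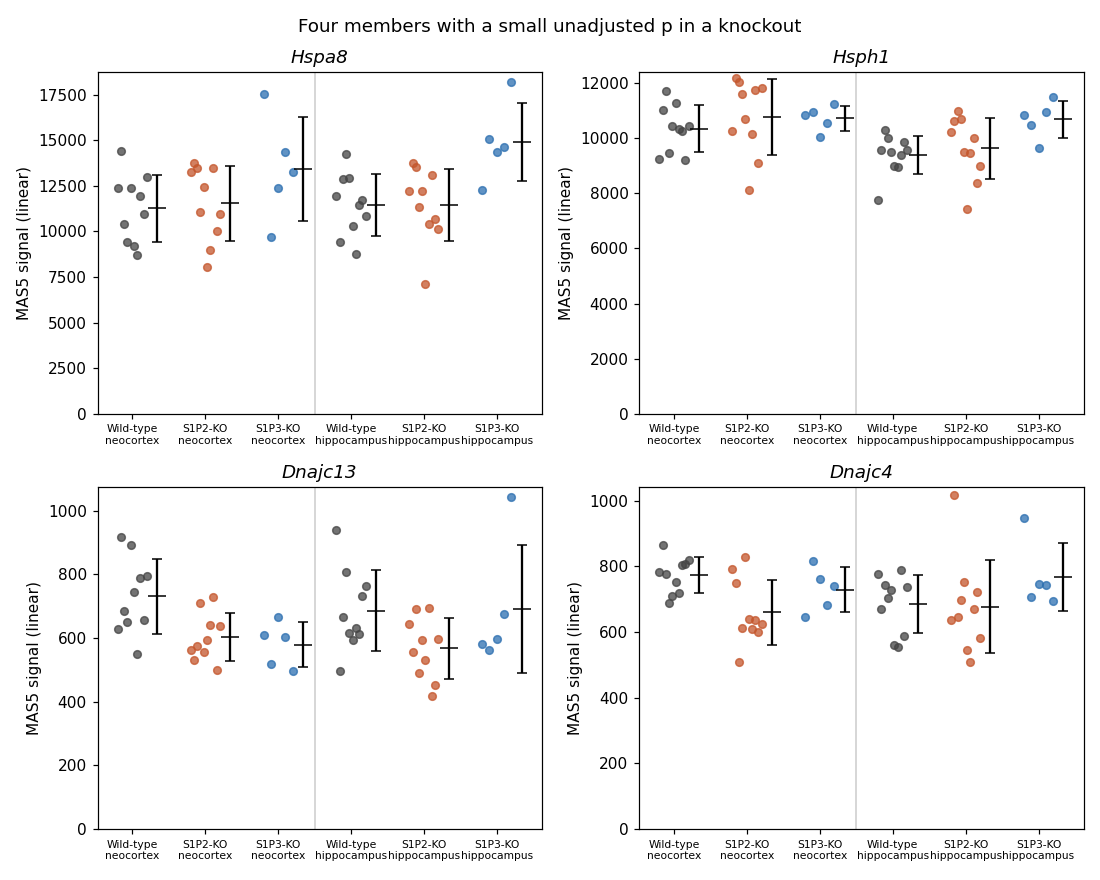
MAS5 signal (linear axis) of Hspa8, Hsph1, Dnajc13 and Dnajc4 on each array, by genotype and tissue, with points for arrays, a black bar for the group mean and whiskers for 1 SD. Hspa8 and Hsph1 lie above the wild-type median on all 5 S1P3-KO hippocampus arrays, Dnajc13 and Dnajc4 have lower medians in S1P2-KO than in wild-type neocortex, and in each panel the groups overlap.

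Direct comparison of the knockouts called no member in neocortex or hippocampus (0% of genes in both). At an unadjusted p under 0.05, 1 member stood in neocortex (1.92%, 5.92% of all genes) and 4 in hippocampus (7.69%, 11.8% of all genes), and all 5 estimates were below 0, where 2.9% and 6.14% of all genes stood below 0 at that p. The 4 of hippocampus were Hspa8 (-0.41 ± 0.12, adjusted p = 0.2345), Cct8 (-0.33 (adjusted p = 0.3383)), Cct5 (-0.20 (adjusted p = 0.3921)) and Hsph1 (-0.17 (adjusted p = 0.432)). The 1 of neocortex was Hspa14, an Hsp70-like protein of the ribosome (-0.34 (adjusted p = 0.8023)). None of the 10 S1P2-KO hippocampus arrays reached the S1P3-KO median of Hspa8, 14653. In hippocampus 15 of 52 members had estimates above 0 (28.8%, all genes 49.4%), among them 8 of 10 DnajA and DnajB genes and Hsp90aa1 (0.35), and 0 of 9 CCT and 0 of 7 Hsp70 genes. The Hsp90aa1 estimate includes S1P3-KO replicate 1, which read 5936.9, far below the other arrays of its group. Without S1P3-KO replicate 5 the differences were -0.32 for Hspa8 (adjusted p = 0.6071), -0.28 for Cct8, -0.13 for Cct5 and -0.13 for Hsph1, and 16 members were above 0 (30.8%, all genes 47.7%), with 2 of 9 CCT and 0 of 7 Hsp70 genes. At an unadjusted p under 0.05 then stood 2 members (3.85%, all genes 6.69%). These were 1 of the 7 Hsp70 genes and either Hspbp1 or Hspb11, so Cct8, Cct5 and Hsph1 were not among them.

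Whether a knockout's effect differs between the tissues was tested by interaction, and no member was called for S1P2-KO or S1P3-KO (0% of genes in both). At an unadjusted p under 0.05 stood 1 of 52 members for S1P2-KO (2.43% of all genes) and 5 for S1P3-KO (9.62%, 5.24% of all genes). The 5 were Cct5 (0.29), Cct6b (1.02), Dnajc7 (-0.38), Dnajc17 (0.79) and Hspa9 (0.37), each with an adjusted p of 0.8748. Without S1P3-KO hippocampus replicate 5 these were 0.22, 1.29, -0.25, 0.85 and 0.24, and 4 members stood at that p (7.69%, all genes 3.23%). Between females and males no member was called either (0.063% of genes in each tissue). Hspe1 in neocortex (-0.14 (adjusted p = 0.785)), and Dnajc4 (-0.22 (adjusted p = 0.886)) and Cct7 (-0.16 (adjusted p = 0.9217)) in hippocampus, had estimates below 0 (female minus male) at an unadjusted p under 0.05, where 5.86% and 5.18% of all genes stood.

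In the knockouts the lists of other folding genes held 1 called gene. Kdelr1, the receptor that returns chaperones to the endoplasmic reticulum, was lower in S1P3-KO hippocampus (2851 and 4185 in wild-type, -0.56 ± 0.10, adjusted p = 0.02732). Without replicate 5 the call was lost (-0.53, adjusted p = 0.0578). Of the same list those of smallest p were otherwise the disulphide isomerase Pdia6 (0.50 (adjusted p = 0.1624)) and Hsp90b1, the Hsp90 of that compartment (0.13 (adjusted p = 0.536)), in S1P2-KO neocortex, Hsp90b1 (0.24 (adjusted p = 0.8088)) and the lectin chaperone Canx (0.31 (adjusted p = 0.9006)) in S1P2-KO hippocampus, Manf (0.46 (adjusted p = 0.1885)) and Pdia4 (0.57 (adjusted p = 0.3155)) in S1P3-KO neocortex, and Hsp90b1 (0.42 (adjusted p = 0.1866)) in S1P3-KO hippocampus. None of 20 co-chaperones was called. Those of smallest p were Bag6 (0.19 (adjusted p = 0.4502)) and the Hsp70-Hsp90 adaptor Stip1 (0.20 (adjusted p = 0.477)) in S1P2-KO neocortex, Grpel2 (-0.18 (adjusted p = 0.9047)) and Fkbp5 (0.23 (adjusted p = 0.9047)) in S1P2-KO hippocampus, Bag2 (-0.23 (adjusted p = 0.3486)) and Fkbp5 (0.39 (adjusted p = 0.4489)) in S1P3-KO neocortex, and Fkbp4 (0.20 (adjusted p = 0.4933)) and Ppp5c (-0.60 (adjusted p = 0.5251)) in S1P3-KO hippocampus.

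Of prefoldin and tubulin folding 0 of 8 genes were called in a knockout. The smallest p were those of Vbp1 (-0.13) and Tbca (-0.16) in S1P2-KO neocortex, Pfdn6 (-0.08) and Pfdn2 (0.09) in S1P2-KO hippocampus, Tbcb (0.33) and Pfdn2 (0.14) in S1P3-KO neocortex, and Tbcb (0.39) and Tbce (0.29) in S1P3-KO hippocampus, the lowest adjusted p being 0.3846. Of 9 other heat-inducible genes 0 were called. Besides Stip1 in S1P2-KO neocortex and Fkbp4 in S1P3-KO hippocampus, which are also co-chaperones, the smallest p were those of the collagen chaperone Serpinh1 (0.18 and 0.19 in S1P2-KO neocortex and hippocampus), Cacybp (-0.28 in S1P2-KO hippocampus), Vcp (-0.04 in S1P3-KO neocortex) and Stip1 (0.20 and -0.23 in S1P3-KO neocortex and hippocampus). Hsbp1 gave -0.03 and -0.14 in S1P2-KO and -0.28 and -0.29 in S1P3-KO neocortex and hippocampus and was not called. Apart from Kdelr1, the S1P3-KO hippocampus values of all these lists include replicate 5, the array of highest 3′ to 5′ ratio. They are not given without it.

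Astrocyte markers were read beside these comparisons. Gfap was called in S1P3-KO hippocampus, where it is 1 of the 2 genes called, with means of 4733 and 2558 in wild-type (0.84 ± 0.14, adjusted p = 0.02732), and without replicate 5 its difference was 0.68 (adjusted p = 0.0578). In S1P3-KO 4 of 5 astrocyte markers had estimates above 0 in neocortex and 3 in hippocampus. In S1P2-KO 4 of 5 had estimates above 0 in neocortex and 5 in hippocampus, with 0 called (Gfap 0.47 (adjusted p = 0.2351) and 0.33 (adjusted p = 0.8088)). Their summed signal ran from 4978.9 to 6960.7 in wild-type and 5429.6 to 7586.7 in S1P2-KO neocortex, and from 5676.5 to 10476.9 and 6705.1 to 10028.6 in hippocampus. In S1P3-KO it ran from 5369.1 to 6885.7 in neocortex and from 6831.9 to 11405.3 in hippocampus. The part of these markers in the chaperone values was not tested.

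Dnajb5 and Dnajc5 were singled out after their values were seen, because 4 hippocampus arrays stood far below the rest. Dnajb5 is a J-domain partner of Hsp70 and Dnajc5 is cysteine string protein, which keeps synaptic vesicle proteins folded. Dnajb5 read 37.5 on S1P3-KO replicate 5, 32.9 on S1P2-KO replicate 7, 74.6 on wild-type replicate 4 and 83.9 on wild-type replicate 3, and between 597.5 and 2200.3 on the other 21 hippocampus arrays. Dnajc5 read 299.1, 350.7, 305.4 and 547.2 on the same 4, and between 900 and 2134.2 on the other 21. These are the 4 hippocampus arrays with the highest 3′ to 5′ ratios. On the 25 neocortex arrays Dnajb5 ran from 854.9 to 3092.6 and Dnajc5 from 1259.6 to 2414.5.

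The tissue differences of these genes depended on how those arrays were treated. Dnajb5 differed by -1.26 ± 0.48 in wild-type (adjusted p = 0.06876), by -0.96 ± 0.28 without the 3 arrays of ratio above 1 (adjusted p = 0.01158), and by -1.45 ± 0.35 with the ratio as a covariate (adjusted p = 0.001767). Dnajc5 gave -0.57 ± 0.25 (adjusted p = 0.1289), -0.38 ± 0.15 (adjusted p = 0.07684) and -0.70 ± 0.19 (adjusted p = 0.00462). The set without the 3 arrays still holds wild-type replicate 3, where Dnajb5 read 83.9. The covariate was centred within each tissue, with a slope for each, so it cannot take out a ratio difference between the tissues. It reads hippocampus at a mean ratio that includes the 4.46 of S1P3-KO replicate 5. Calls made with it therefore do not show a tissue difference free of the ratio. In S1P2-KO the Dnajb5 difference was -0.86 (adjusted p = 0.2738) with all arrays, -0.42 without the 3 (adjusted p = 0.3799) and -1.12 with the covariate (adjusted p = 0.01682), and in S1P3-KO -1.68 (adjusted p = 0.1032), -0.89 (adjusted p = 0.2062) and -0.81 (adjusted p = 0.3863). Dnajc5 gave -0.58, -0.38 (adjusted p = 0.078) and -0.70 (adjusted p = 0.004303) in S1P2-KO, and -0.54, -0.11 (adjusted p = 0.8543) and -0.07 (adjusted p = 0.9288) in S1P3-KO. All these estimates were below 0.

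**Figure D4:**
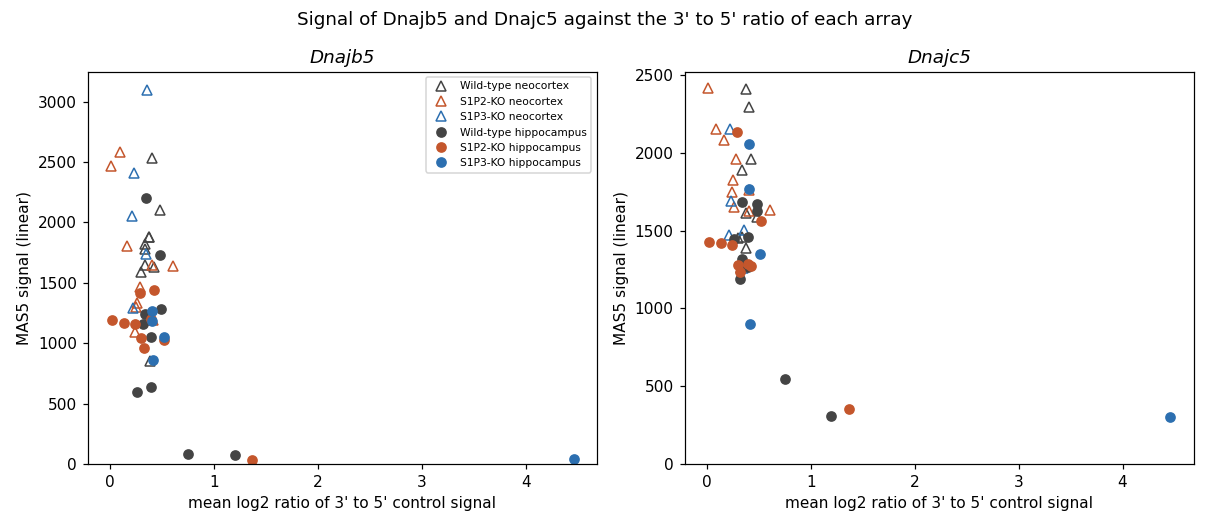
MAS5 signal (linear axis) of Dnajb5 and Dnajc5 against the averaged log2 3′ to 5′ ratio of controls, for 50 arrays, with filled circles for hippocampus, open triangles for neocortex and colours for genotypes. The 4 hippocampus arrays of ratio 0.75, 1.20, 1.37 and 4.46 have Dnajb5 between 32.9 and 83.9 and Dnajc5 between 299.1 and 547.2, below all other arrays.

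Within a group the members varied about as much as other genes. The median coefficient of variation of the 52 members was 17.3% in wild-type neocortex, 17.8% in S1P2-KO neocortex, 17.5% in S1P3-KO neocortex, 17.9% in wild-type hippocampus, 18.8% in S1P2-KO hippocampus and 22.7% in S1P3-KO hippocampus, where all genes gave 17.4%, 17.4%, 18.6%, 18.6%, 18.5% and 24.4%. The steadiest members were Dnajc15, which acts in mitochondrial import, at 2.80% in S1P3-KO neocortex, and Dnajc8 at 3.59% in wild-type neocortex. The most variable were Hspa1l at 84.4% in S1P2-KO hippocampus and Cct6b at 76.8% in S1P3-KO neocortex, both dim.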

How the data were processed

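RNA of 25 neocortices and 25 hippocampi was hybridised to Affymetrix arrays. The authors deposited linear intensities, 1 for each probe set on each array, which per the submitters' processing notes is a MAS5 signal (version not given in the sources used here). The deposited intensities were already scaled, and MAS5 leaves low signals noisy. For arrays there is no depth, and their number limits the precision. Genes were named through the platform annotation, and all 54 members matched RefSeq by gene ID.

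From these, log2(signal + 30.7) was computed, where 30.7 is the 10th percentile of all signals, which shrinks the differences of dim genes. Probe sets whose mean log2 value over the 50 arrays passed the pooled 30th percentile were tested (8534). limma 3.58.1 in R 4.3.3 (lmFit, eBayes with a trend, two-sided) was fitted per tissue over 3 genotypes with sex, and over all 50 arrays for tissue and interaction contrasts with sex within tissue. All adjusted p-values are from limma with Benjamini-Hochberg adjustment over all probe sets, threshold 0.05. The procedure was tested on simulated data.

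Values are named for the brightest member of each role, up to 12 members called in the wild-type tissue comparison, any called in another comparison of genotypes or sexes, the 3 of smallest p in each knockout comparison, S1pr2 and S1pr3, and up to 4 genes of each list called, or the 2 of smallest p. Dnajc21, Hspa1b, Hspb8 and Dnajc7 in the tissue comparisons of the knockouts, members listed at an unadjusted p under 0.05, other ring subunits, Hspa1a, Dnajb2, Dnajb5, Dnajc5, Cct3, Cct6b and the genes of the variation paragraph lie outside this rule and were picked with their values in view. The members and lists were chosen with earlier results of these data known. Equal replicate numbers across tissues are not stated to be the same mouse and did not correlate in every pair, so the main fit has no pairing. Alternatives changed the pseudocount, filter, scaling, probe set, weights, covariates and arrays used. Leaving out S1P3-KO hippocampus replicate 5 from the comparison of the knockouts and from the interaction was chosen after seeing the data.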

Additional observations from a re-analysis of the deposited data

Results flagged for a closer look

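Signals of the 54 members were checked in 324 groups of 5 or 10 arrays for a single array far from the rest of its group (Dixon's 95% limit), which chance alone passes in about 5% of groups. 26 were found. In hippocampus, S1P2-KO replicate 7 was low for Dnajb5 (32.9), Dnajc5 (350.7) and Dnajc1 (191.2), and its 3′ to 5′ ratio of 1.37 is the second highest of the tissue. S1P3-KO replicate 5, of ratio 4.46, was high for Dnajc13 (1043.1) and Dnaja2 (2142.6) and low for Cct6b (72). The part of the ratio in these values was not tested. S1P3-KO replicate 1 was high for Hspb8 (1495.2) and Dnajc4 (948), and in S1P2-KO replicate 2 was high for Dnajc4 (1016.2), replicate 4 for Dnajc7 (4059.2), replicate 10 for Hspa4l (2414.1) and replicate 1 for Hspb1 (207.9). In wild-type hippocampus replicate 3 was high for Hspa14 (876.6) and replicate 1 for Hspb2 (1125.2). In neocortex, S1P3-KO replicate 2 was low for Hspa2 (538.3), Hspa1a (607) and Hspa14 (412.3) and high for Cct3 (3043.4), and S1P3-KO replicate 1 was high for Hspa1b (1127.8) and Cct7 (6504.3). In S1P2-KO neocortex replicate 5 was high for Cct3 (2563.5), replicate 10 for Dnaja1 (11596.8) and replicate 1 for Dnajc15 (704.5), and replicate 6 was low for Dnajc1 (258.1). In wild-type neocortex replicate 1 was high for Dnaja3 (3124.4) and replicate 4 for Dnajb3 (974.5).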

How the results depend on the processing

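The 0 members called in each knockout, interaction and sex comparison stayed at 0 under every alternative run. In the wild-type tissue comparison 4 members were called, 8 with array weights, 7 with a covariate for the 3′ to 5′ ratio and 11 with the replicate number as a block (5 higher and 6 lower), and Hspa2, Hspe1, Cct5 and Dnajb1 were among them each time. The ratio covariate was centred within each tissue and so does not take out a ratio difference between the tissues. With the replicate block S1P3-KO gave 9 in place of 5 and S1P2-KO 10 in place of 8. Correlations of equal numbers between tissues ran from -0.06 to 0.19 in wild-type, 0.04 to 0.22 in S1P2-KO and -0.27 to 0.07 in S1P3-KO. Their means were 0.09, 0.13 and -0.09, against -0.01, -0.01 and 0.02 for unequal numbers. Equal numbers thus correlated more than unequal ones in wild-type and S1P2-KO and less in S1P3-KO. The labels do not state pairs, so the main fit takes none, and whether the numbers mark the same mouse is not settled. Leaving out 1 array gave 4 to 5 calls in wild-type, 6 to 9 in S1P2-KO and 4 to 7 in S1P3-KO. The counts of this paragraph stand without the shares of all genes called under the same alternatives. They therefore do not set the members apart from other genes. No named difference changed sign past the threshold. Besides the lost calls given with each gene, Hspa2 in S1P3-KO was lost with array weights (adjusted p = 0.06742) and Dnajb1 in S1P3-KO without the 3 arrays of ratio above 1 (adjusted p = 0.08311). The median over members in S1P3-KO tissues, 0.10, was 0.18 without S1P3-KO neocortex replicate 1. A group of 5 arrays limits what the S1P3-KO comparisons can show.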

Other observations

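None of the 5 Dnaj genes of the endoplasmic reticulum passed an adjusted p of 0.05 in a knockout comparison. Dnajb11, a partner of the Hsp70 of that compartment, differed by 0.22 (adjusted p = 0.6581) in S1P2-KO neocortex, 0.07 (adjusted p = 0.9776) in S1P2-KO hippocampus, 0.31 (adjusted p = 0.546) in S1P3-KO neocortex and 0.25 (adjusted p = 0.666) in S1P3-KO hippocampus. Dnajb9, which the unfolded protein response induces, gave 0.16, 0.04, 0.17 and 0.17 in the same order, and Dnajc3, an inhibitor of a kinase of that response, -0.07, 0.15, 0.05 and 0.22. Comparisons within a tissue share their wild-type arrays. These genes were chosen after their values were seen.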
